A study of Homo sapiens with 4 samples.

Results

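The mRNAs of 10 proteins that bind N6-methyladenosine (m6A) were followed in an RNA immunoprecipitation sequencing (RIP-seq) experiment on KIAA1429, also named VIRMA, a large scaffold subunit of the m6A methyltransferase complex. They are the rows whose gene name is YTHDF1, YTHDF2, YTHDF3, YTHDC1, YTHDC2, IGF2BP1, IGF2BP2, IGF2BP3, HNRNPA2B1 or HNRNPC. All 10 names were listed, of 13300 gene names in all, with 47 transcripts of 34975. RIP-seq pulls a protein out of a cell lysate with an antibody and sequences the RNA that comes with it, and normal IgG gives the background. The cells were HCCLM3, a human hepatocellular carcinoma line. The groups were KIAA1429 RIP and IgG RIP, with 2 libraries each, and the sources used here name no drug, knockdown or other treatment for either. The comparison of KIAA1429 RIP with IgG RIP asks which transcripts came down with KIAA1429. No library of the input RNA was analysed here, so a level below is a level in a precipitate. Nothing says whether the replicates were separate cultures, so the p-values measure only the spread between these libraries, which may be technical.

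m6A is placed on mRNA in the nucleus by the methyltransferase complex ("writers"), can be removed by demethylases ("erasers") and acts through proteins that recognise it ("readers"). The YTH domain holds the methylated base in an aromatic pocket. YTHDF proteins act in the cytoplasm, where YTHDF2 leads bound mRNAs to deadenylation and decay, while YTHDC1 is nuclear and works in splicing and export. IGF2BP proteins are oncofetal RNA-binding proteins that stabilise mRNAs and are often raised in liver cancer, and HNRNPA2B1 and HNRNPC are abundant nuclear proteins whose binding m6A can direct, for HNRNPC by opening the RNA structure around its U-rich site.

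Values are FPKM, fragments scaled by transcript length and library size, and a gene total is the sum over a gene's listed transcripts. The FPKM of a library summed to between 295573 and 340300. Every listed transcript had a mean of at least 0.50 FPKM in 1 of the groups, so transcripts that were lower in both were not seen. Read counts were not used here, and depth and counting error are unknown. Of the liver and hepatoma markers, AFP ranged from 99.1 to 128 FPKM and ALB from 53.5 to 76.3 FPKM, and SERPINA1, APOA1 and TF lay between 23.2 and 74.5 FPKM. HNF4A was at 1.11 FPKM or less and FOXA2 at 1.74 FPKM or less. Of the epithelial markers, KRT8 and KRT18 were above 250 FPKM in all libraries, EPCAM reached 3.21 FPKM and CDH1 was not listed. The leukocyte, erythroid, fibroblast and endothelial markers PTPRC, HBB, COL1A1 and PECAM1 were not listed.

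Coding stretches that some listed protein-coding transcripts hold and others lack were searched for in YTHDC1, IGF2BP2 and HNRNPC alone. The other members were not searched. Shares of a stretch are taken from the FPKM of whole transcripts, which also differ elsewhere, and reads over a stretch were not counted. The stretches found were in frame, and they are shown because the balance between the forms is described with each gene. They are given 5′ to 3′ on the minus strand of GRCh37, with exons from GENCODE v44lift37. Capitals mark the GT or AG at which the form without the stretch is spliced. The cassette exon of IGF2BP2, chr3:185390329-185390457, has 129 bases (43 codons) and is skipped whole.
HNRNPC, chr14:21699117-21699155, 39 bases at an alternative donor: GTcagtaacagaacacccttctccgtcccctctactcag
YTHDC1, chr4:69184448-69184471, 24 bases at an alternative acceptor: tttcacaaatcttattcccaacAG
IGF2BP2, chr3:185410551-185410568, 18 bases at an alternative acceptor: tttttgccttttccctAG
IGF2BP2, chr3:185390329-185390457, 129-base cassette exon: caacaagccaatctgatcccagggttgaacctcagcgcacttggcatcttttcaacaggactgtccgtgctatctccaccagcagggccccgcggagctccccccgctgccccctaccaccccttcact

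All 10 reader mRNAs were present in both precipitates, and none was called between KIAA1429 RIP and IgG RIP. HNRNPC had the highest mean over the 4 libraries, 190 FPKM, followed by HNRNPA2B1 at 108 FPKM, IGF2BP2 at 65.8 FPKM and IGF2BP1 at 40.6 FPKM. YTHDF1, YTHDF2, YTHDF3 and IGF2BP3 lay between 19.2 and 23.9 FPKM. The nuclear reader YTHDC1 and the helicase YTHDC2 were lowest, at 9.07 and 4.45 FPKM. The ranges of HNRNPC and HNRNPA2B1 over the libraries overlapped, as did those of neighbours from YTHDF1 down to YTHDC2. IGF2BP2 and IGF2BP1 each lay apart from both neighbours in this order. Together the readers summed to 562 and 364 FPKM in IgG RIP and to 613 and 467 FPKM in KIAA1429 RIP.

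**Figure D1:**
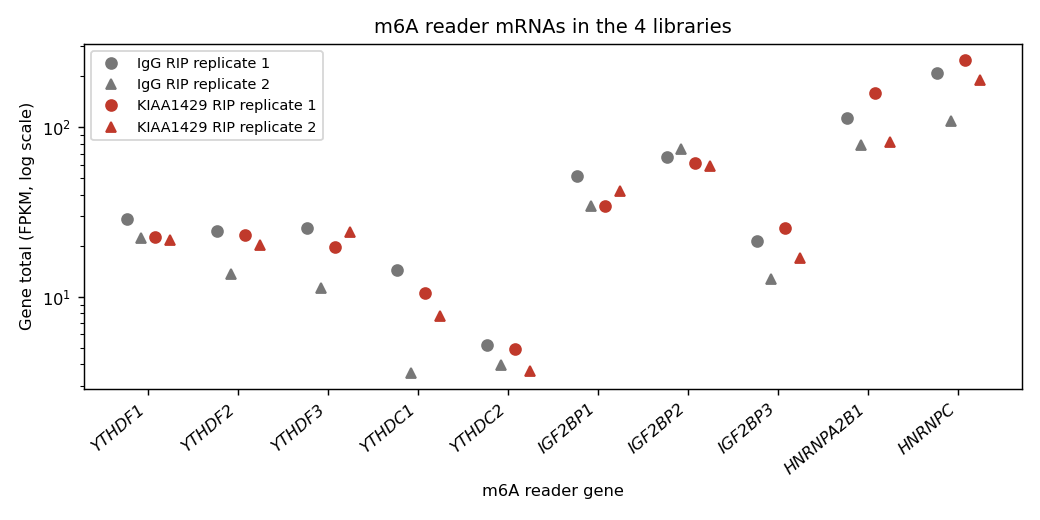
Gene totals of the 10 m6A readers in FPKM on a log axis, one symbol per library (grey IgG RIP, red KIAA1429 RIP; circle replicate 1, triangle replicate 2). The readers run from HNRNPC, with a mean of 190 FPKM, to YTHDC2, with 4.45 FPKM, and the groups are apart for IGF2BP2 alone.

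YTHDF1, whose protein is linked to translation of methylated mRNAs, had 1 listed transcript, ENST00000370339 (chr20:61826781-61847586, minus strand). It was at 28.9 and 22.3 FPKM in IgG RIP and at 22.7 and 21.7 FPKM in KIAA1429 RIP. IgG RIP replicate 1 was high and the other 3 libraries were close to each other. The log2 fold change was -0.19 (SE 0.31, 95% interval -0.93 to 0.56).

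The decay factor YTHDF2 was at 24.3 and 13.6 FPKM in IgG RIP and at 23.0 and 20.3 FPKM in KIAA1429 RIP. Both KIAA1429 RIP libraries lay within the range of the IgG RIP libraries, and the log2 fold change was 0.23 (SE 0.38). The coding ENST00000373812 (chr1:29063271-29096287, plus strand) held between 87.9% and 95.3% of the total.

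YTHDF3, which works with both other YTHDF proteins, was at 25.6 and 11.2 FPKM in IgG RIP and at 19.6 and 24.1 FPKM in KIAA1429 RIP. The groups overlapped, with a log2 fold change of 0.33 (SE 0.44). Its leading transcript ENST00000539294 (chr8:64081112-64125344, plus strand) held 96.5% and 88.9% of the total in IgG RIP, against 74.6% and 82.7% in KIAA1429 RIP. The remainder in KIAA1429 RIP lay largely in a different minor transcript in each library, ENST00000517371 at 3.31 FPKM in replicate 1 and ENST00000621413 at 4.15 FPKM in replicate 2, both listed at 0 in the other 3 libraries. Of the 8 members with 2 or more listed transcripts, YTHDF3 was the 1 whose leading share was lower in both KIAA1429 RIP libraries, and 0 had a higher one. Among all 7580 gene names with 2 or more listed transcripts, 14.2% had a lower and 15.6% a higher share in this way.

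YTHDC1, the nuclear YTH reader that recruits splicing factors, was at 14.5 and 3.56 FPKM in IgG RIP and at 10.5 and 7.75 FPKM in KIAA1429 RIP. The IgG RIP libraries were 4.06-fold apart, the widest gap of any member within a group, and the KIAA1429 RIP libraries lay between them. The means were 9.01 ± 7.71 and 9.13 ± 1.95 FPKM (SD, n = 2 each), and the log2 fold change was 0.26 with a 95% interval of -1.20 to 1.72. The gap lay in 1 isoform. ENST00000579690 (chr4:69179042-69215471, minus strand), which holds the 24 bases printed above, was at 10.2 and 0.04 FPKM in IgG RIP and at 5.90 and 3.87 FPKM in KIAA1429 RIP. ENST00000344157, which lacks them, stayed between 2.11 and 3.85 FPKM in all 4 libraries. ENST00000579690 thus made up 78.6% and 1.29% of the pair in the IgG RIP libraries, against 73.7% and 50.2% in the KIAA1429 RIP libraries. So 1 IgG RIP library listed almost none of it. The pair also differs outside the 24 bases, with annotated lengths of 2983 and 6233 bases, so this split is not that of the stretch alone.

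YTHDC2, an RNA helicase with a YTH domain that is needed for meiosis, had 1 listed transcript, ENST00000161863 (chr5:112849380-112930981, plus strand). It was at 5.21 and 3.97 FPKM in IgG RIP and at 4.95 and 3.66 FPKM in KIAA1429 RIP. The groups overlapped, and in each of them replicate 1 was the higher. The log2 fold change was -0.08 (SE 0.46).

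Of the IGF2BP genes, IGF2BP1 was at 51.6 and 34.5 FPKM in IgG RIP and at 34.3 and 42.0 FPKM in KIAA1429 RIP. The high and low libraries were mixed between the groups, and the log2 fold change was -0.15 (SE 0.33). The coding ENST00000290341 (chr17:47074774-47133012, plus strand) held at least 92.4% of the total in each library.

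IGF2BP2 was the 1 member whose libraries did not overlap between the groups. It was at 67.0 and 74.8 FPKM in IgG RIP and at 62.0 and 59.3 FPKM in KIAA1429 RIP, so both KIAA1429 RIP libraries were lower. The means were 70.9 ± 5.46 and 60.6 ± 1.88 FPKM (SD, n = 2 each), with a log2 fold change of -0.22 (SE 0.27, 95% interval -0.87 to 0.43). Of all 11361 gene totals tested, 15.2% were lower in both KIAA1429 RIP libraries and 16.6% higher, against 1 and 0 of the 10 members.

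The 4 protein_coding transcripts of IGF2BP2 summed to 57.6 and 67.4 FPKM in IgG RIP and to 59.5 and 59.2 FPKM in KIAA1429 RIP, and these sums overlapped. The 4 entries typed processed_transcript, spliced RNAs with no annotated reading frame, summed to 9.48 and 7.36 FPKM in IgG RIP and to 2.42 and 0.08 FPKM in KIAA1429 RIP. The separation of the IGF2BP2 totals was thus not present in the coding transcripts alone. The 4 processed_transcript entries are annotated at 138 to 509 bases, so few reads can give a large FPKM. The most abundant, ENST00000464166, was at 5.22 and 1.62 FPKM in IgG RIP and at 2.08 and 0.02 FPKM in KIAA1429 RIP, so its groups overlapped. ENST00000466214 was above 0 in IgG RIP replicate 1 alone, at 1.93 FPKM. Of these entries, ENST00000461957 (chr3:185407243-185541059, minus strand) was at 0.76 and 3.50 FPKM in IgG RIP, and at 0.23 FPKM in KIAA1429 RIP replicate 1 and listed at 0 in replicate 2. ENST00000466476 (chr3:185414203-185542680, minus strand) was at 1.58 and 2.24 FPKM in IgG RIP and at 0.12 and 0.07 FPKM in KIAA1429 RIP. Both were lower in both KIAA1429 RIP libraries, with log2 fold changes of -1.34 (SE 0.93) and -1.41 (SE 0.82) on log2(FPKM + 1) and an adjusted p of 0.879 each (limma). Their means were 2.13 and 1.91 FPKM in IgG RIP, against 0.12 and 0.09 FPKM in KIAA1429 RIP. Both thus passed the filter of 1 FPKM only through IgG RIP, and both were named because their groups were apart. Of all transcripts tested, 14.5% were lower in this way, so these values are a description only. At these low levels the size depended on the pseudocount, and with 0.1 in place of 1 the values were -3.27 and -3.39. Without IgG RIP replicate 1 ENST00000461957 was at -2.02, and without IgG RIP replicate 2 at -0.66.

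The coding isoforms of IGF2BP2 differed more between libraries of a group than between groups. ENST00000346192 (chr3:185361763-185542812, minus strand) was at 7.20 and 27.2 FPKM in IgG RIP and at 8.85 and 35.4 FPKM in KIAA1429 RIP. ENST00000457616 was at 22.1 and 0.40 FPKM in IgG RIP, and at 15.0 FPKM in KIAA1429 RIP replicate 1 and listed at 0 in replicate 2. In both groups, then, replicate 1 was low in the former and high in the latter, and replicate 2 the reverse. ENST00000382199 was the steadiest, between 16.2 and 21.4 FPKM, and ENST00000421047 was at 10.5 and 19.9 FPKM in IgG RIP and at 14.3 and 7.68 FPKM in KIAA1429 RIP. The leading transcript was ENST00000457616 in IgG RIP replicate 1, ENST00000382199 in KIAA1429 RIP replicate 1 and ENST00000346192 in both other libraries. Among transcripts whose ends match the annotation, which hold 64.1% of the IGF2BP2 total, the 129-base cassette exon was in 81.9% and 42.7% of the FPKM in IgG RIP and in 76.8% and 17.8% in KIAA1429 RIP. The 18-base stretch was in 55.5% and 0.84% in IgG RIP, and in 39.2% in KIAA1429 RIP replicate 1 and in 0% in replicate 2. Both shares overlapped between the groups and were high in replicate 1 of each. With transcripts of any ends, the cassette exon was in 87.5% and 59.6% in IgG RIP, against 85.1% and 40.3% in KIAA1429 RIP, and the 18-base stretch was in 38.4% and 0.59%, against 25.1% and 0%. Whether the replicate numbers mark a shared culture or day was not stated.

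**Figure D2:**
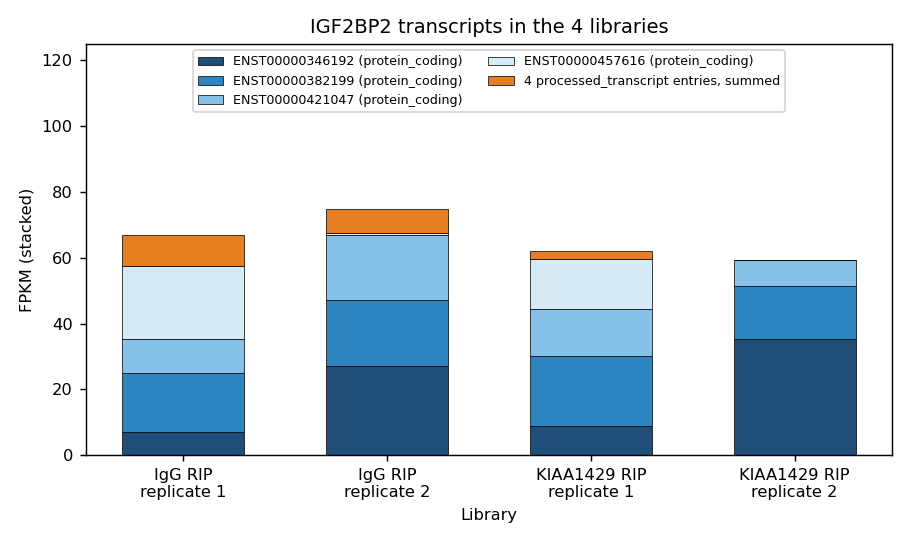
FPKM of the listed IGF2BP2 transcripts in the 4 libraries, stacked, with the 4 protein_coding transcripts in blue and the sum of the 4 processed_transcript entries in orange. The coding sums range from 57.6 to 67.4 FPKM, while the orange part is 9.48 and 7.36 FPKM in IgG RIP, against 2.42 and 0.08 FPKM in KIAA1429 RIP.

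The gene totals whose pattern was most like that of IGF2BP2 were MEPCE, RHOBTB2 and SMO. After centring log2(FPKM + 1) over the 4 libraries, they differed from IGF2BP2 by a root mean square of 0.0123, 0.0126 and 0.0132, and 28 of 11360 other gene totals lay within 0.05. With 4 libraries such likeness is a description only.

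IGF2BP3 was at 21.5 and 12.8 FPKM in IgG RIP and at 25.5 and 16.9 FPKM in KIAA1429 RIP. Replicate 1 was the higher in each group, the groups overlapped, and the log2 fold change was 0.31 (SE 0.39). The coding ENST00000258729 (chr7:23349828-23510086, minus strand) held between 82.4% and 100% of the total. MALSU1, annotated on the opposite strand across this locus, is also listed, and whether reads were counted by strand is not given in the sources used here.

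HNRNPA2B1, which binds m6A-marked nuclear RNAs including primary microRNAs, was at 114 and 78.3 FPKM in IgG RIP and at 160 and 81.8 FPKM in KIAA1429 RIP. The KIAA1429 RIP libraries were 1.96-fold apart, and the high library of the group exceeded all others while the low one lay within the IgG RIP range. The log2 fold change was 0.27 (SE 0.40). ENST00000356674 (chr7:26231464-26240366, minus strand) held between 89.6% and 99.0% of the total. The genes CBX3 and NFE2L3, annotated on the opposite strand over part of HNRNPA2B1, are both listed too.

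HNRNPC, a nuclear protein that packages nascent RNA and binds U-rich runs, had the largest log2 fold change of the members, 0.53 (SE 0.39, 95% interval -0.40 to 1.46). It was at 209 and 109 FPKM in IgG RIP and at 250 and 190 FPKM in KIAA1429 RIP. IgG RIP replicate 2 was far below the other 3 libraries, and IgG RIP replicate 1 lay between both KIAA1429 RIP libraries, so the groups overlapped. The means were 159 ± 70.8 and 220 ± 42.7 FPKM (SD, n = 2 each). The annotation holds 11 copies of HNRNPC by name (pseudogenes and HNRNPC-like genes), none of which is listed. Reads from them could be in these values, and the level is uncertain to that extent. The same holds for YTHDF1, YTHDF2 and YTHDF3, with 1 unlisted copy each by name (YTHDF1P1, YTHDF2P1 and YTHDF3P1).

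The 17 listed HNRNPC transcripts are all protein_coding. ENST00000556897 (chr14:21679125-21730836, minus strand) was at 81.9 and 18.7 FPKM in IgG RIP and at 71.6 and 57.5 FPKM in KIAA1429 RIP. ENST00000555309 was at 47.3 and 6.87 FPKM in IgG RIP and at 54.1 and 41.9 FPKM in KIAA1429 RIP, and ENST00000336053 was at 32.3 and 6.20 FPKM and at 40.1 and 17.8 FPKM. In these 3 transcripts IgG RIP replicate 2 was the lowest library and IgG RIP replicate 1 lay with the KIAA1429 RIP libraries. ENST00000553300 had the opposite order in IgG RIP, at 2.86 and 22.9 FPKM, against 22.0 and 19.4 FPKM in KIAA1429 RIP. ENST00000555914 was the most even, between 20.1 and 27.8 FPKM. ENST00000557201 was higher in replicate 2 of each group, at 0.42 and 6.62 FPKM in IgG RIP and at 1.14 and 13.9 FPKM in KIAA1429 RIP. The minor ENST00000554969 was the 1 tested member transcript that was higher in both KIAA1429 RIP libraries, at 2.09 and 4.74 FPKM, while in IgG RIP it was at 1.84 FPKM in replicate 1 and listed at 0 in replicate 2. Its log2 fold change was 1.32 (SE 0.85) with an adjusted p of 0.879 (limma), and without IgG RIP replicate 1 and 2 in turn it was 2.07 and 0.57. ENST00000554969 averaged 0.92 FPKM in IgG RIP and 3.41 FPKM in KIAA1429 RIP. It thus passed the filter of 1 FPKM only through KIAA1429 RIP, and it was named because its groups were apart. Of all transcripts tested, 15.2% were higher in this way, so its values are a description only.

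HNRNPC is made as a shorter and a longer protein, C1 and C2, which differ by the 13 residues that the 39 bases printed above encode. Transcripts with the 39 bases held 27.3% and 28.7% of the FPKM in IgG RIP, against 33.1% and 35.3% in KIAA1429 RIP. The share was higher in both KIAA1429 RIP libraries, 34.2% ± 1.58 against 28.0% ± 1.03 (SD, n = 2 each). It is taken over 11 transcripts whose ends match the annotation, which hold 88.2% of the HNRNPC total. Over 5 transcripts with and 7 without the stretch, taken by their annotated exons whatever their ends, the shares were 26.9% and 22.2% in IgG RIP against 30.1% and 31.6% in KIAA1429 RIP, and the groups were still apart. This stretch was 1 of 4 that were examined, all picked after the values were seen, and the other 3 overlapped between the groups, so no test is given. Shares of stretches were not taken over all genes. The share of the leading transcript was higher in both KIAA1429 RIP libraries for 15.6% of 7580 gene names and lower for 14.2%.

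**Figure D3:**
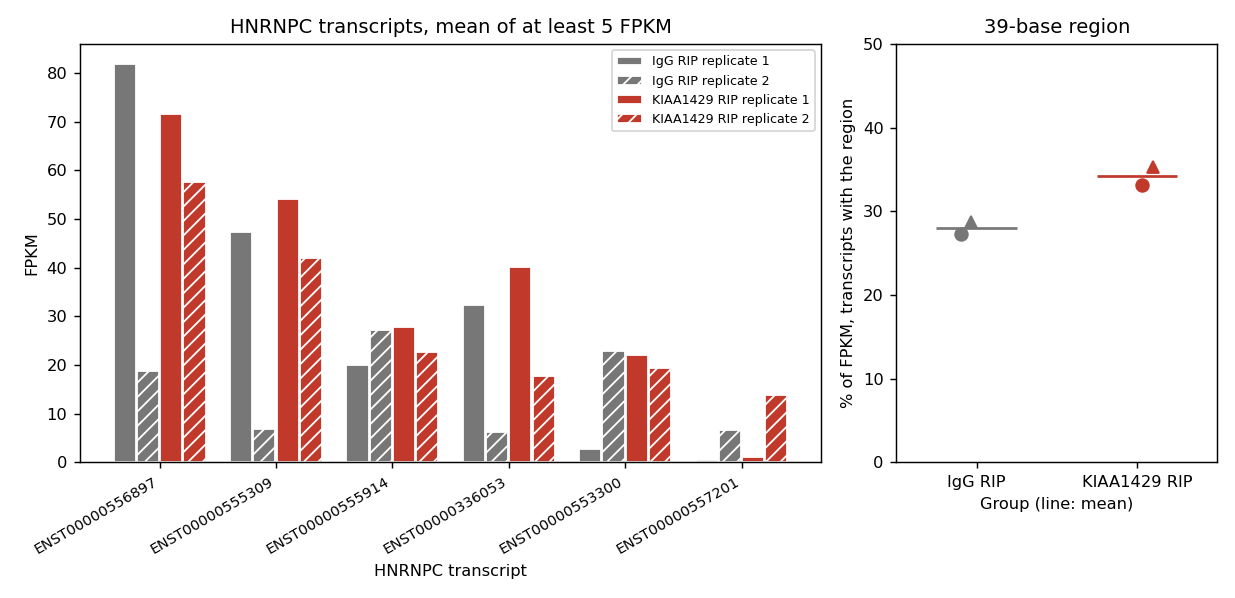
Left, FPKM of the HNRNPC transcripts that averaged 5 FPKM or more, one bar per library. Right, the percent of HNRNPC FPKM in transcripts with the 39-base region, one symbol per library and a line at the group mean (28.0% in IgG RIP, 34.2% in KIAA1429 RIP); IgG RIP replicate 2 is low in 3 of the transcripts on the left, while the shares on the right are close within each group.

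Across the 10 readers, the limma fit over all 11361 gene totals called 0 members higher and 0 lower. The thresholds were an adjusted p under 0.05 and a log2 fold change beyond 1. At these, 0% of all gene totals were called in either direction. The authors used DESeq and report transcripts with 2-fold enrichment in KIAA1429 RIP, and why the results differ was not tested. At an unadjusted p under 0.05, 0 members passed, against 3.17% of all gene totals higher (360) and 1.43% lower (162). The unadjusted p of the members ran from 0.218 for HNRNPC to 0.872 for YTHDC2, and the adjusted p was 0.997 for all 10. The estimates were above 0 for YTHDF2, YTHDF3, YTHDC1, IGF2BP3, HNRNPA2B1 and HNRNPC and below 0 for YTHDF1, YTHDC2, IGF2BP1 and IGF2BP2, that is for 6 and 4, where 51.4% and 48.6% of all gene totals were above and below. The members' median log2 fold change was 0.25, beside 0.02 over all gene totals tested. In 0 of the members were the group means at least 2-fold apart, where 7.58% of all gene totals were at least 2-fold higher in KIAA1429 RIP and 6.14% lower. The 95% intervals of YTHDC1 and YTHDC2 spanned differences beyond 2-fold in both directions, while those of YTHDF1, IGF2BP1 and IGF2BP2 stayed within 2-fold. Those of the other members reached beyond 2-fold upward alone. The result is that no difference was detectable, not that the levels were equal.

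**Figure D4:**
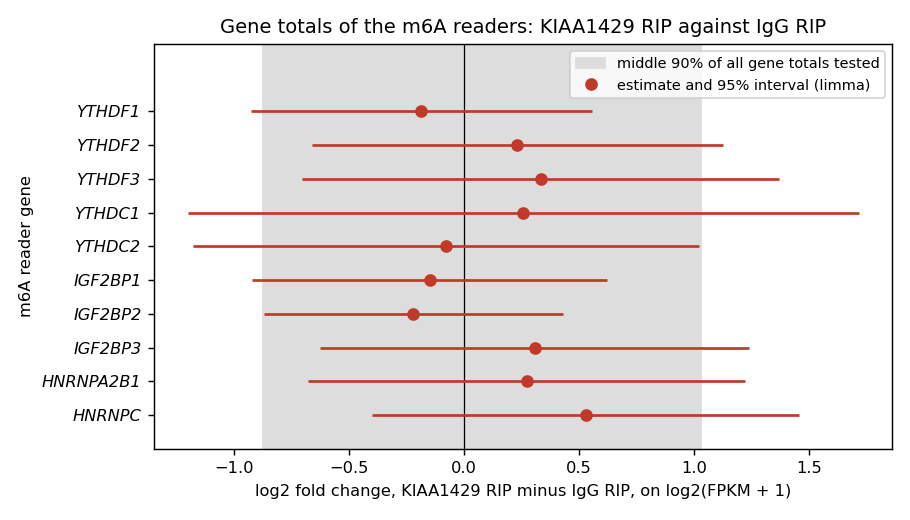
Log2 fold change of each reader gene total, KIAA1429 RIP minus IgG RIP on log2(FPKM + 1), with its 95% interval from limma, over a grey band that holds the middle 90% of all 11361 gene totals tested (-0.87 to 1.03). All 10 points lie within the band and all 10 intervals cross 0.

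At the level of transcripts, 36 of the 47 passed the filter of a mean of at least 1 FPKM, of 23375 in all. Of these 36, 0 were called and 0 had an unadjusted p under 0.05 (limma), against 3.03% higher and 2.33% lower of all transcripts tested. The libraries were apart for 1 member transcript higher and 2 lower, where 15.2% and 14.5% of all transcripts were apart, and 18 estimates were above 0 and 18 below, where 50.4% and 49.6% of all transcripts were. Each member transcript whose libraries were apart had a mean of at least 1 FPKM in its higher group alone. The 11 transcripts below the filter were not tested. Of the 47, 19 were listed at 0 in at least 1 library and 6 were above 0 in 1 library alone, beside 55.5% and 21.7% of all 34975 transcripts.

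The spread within groups followed single libraries. IgG RIP replicate 2 was the lowest library for 6 of the 10 members (YTHDF2, YTHDF3, YTHDC1, IGF2BP3, HNRNPA2B1 and HNRNPC), and for 33.4% of all gene totals tested. IgG RIP replicate 1 was the highest for 6 members and for 30.7% of all. Replicate 1 was above replicate 2 in both groups for 7 of the 10 members, and for 34.9% of all gene totals. Without IgG RIP replicate 2, the estimates of 2 of the 10 members were above 0 and their median was -0.20, beside 44.4% and a median of -0.08 for all gene totals. Without IgG RIP replicate 1, 8 of 10 were above 0 with a median of 0.59, beside 55.7% and 0.09 for all. The part of differences in RNA amount or quality between these libraries was not tested.

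The other genes of the m6A pathway were taken from 4 lists, the writers (8 genes), the erasers FTO and ALKBH5, other proteins proposed to read m6A (9 genes) and partners through which readers act (10 genes). All 29 were listed and tested, and 0 were called (limma, adjusted p from 0.946 to 0.997). Their median log2 fold change was 0.26, with 21 estimates above 0 and 8 below, where 51.4% and 48.6% of all gene totals were. In both KIAA1429 RIP libraries 8 of these genes were higher and 3 lower, where 16.6% and 15.2% of all gene totals were. At an unadjusted p under 0.05 (limma), 4 of them were higher and 0 lower, beside 3.17% and 1.43% of all gene totals. The lists were chosen with earlier results of these data known, so these counts are a description and no support. METTL3, the catalytic subunit of the writer complex, was at 1.19 and 0.50 FPKM in IgG RIP and at 7.44 and 6.04 FPKM in KIAA1429 RIP (log2 fold change 2.09, SE 0.52). It has 1 listed transcript and averaged 0.84 FPKM in IgG RIP, so it passed the filter of 1 FPKM only through KIAA1429 RIP. The other 3 were partners of the readers. RIDA, which bridges YTHDF2 to RNA cleavage, was at 1.91 and 2.0 FPKM in IgG RIP and at 7.60 and 5.35 FPKM in KIAA1429 RIP. The exonuclease XRN1 was at 7.54 and 3.74 FPKM in IgG RIP and at 14.8 and 11.2 FPKM in KIAA1429 RIP. The splicing factor SRSF10, a partner of YTHDC1, was at 10.2 and 3.09 FPKM in IgG RIP and at 15.7 and 19.4 FPKM in KIAA1429 RIP. In these 4 genes the groups did not overlap, with log2 fold changes of RIDA, XRN1 and SRSF10 of 1.32, 1.12 and 1.45. With 1 library left out in turn, the log2 fold change ranged from 1.82 to 2.36 for METTL3 and from 1.11 to 1.54 for RIDA. For XRN1 it ranged from 0.70 to 1.55 and for SRSF10 from 0.73 to 2.18. Without IgG RIP replicate 2, the log2 fold change was 0.70 for XRN1 and 0.73 for SRSF10. Whether the readers' estimates differ from those of the other lists was not tested.

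**Figure D5:**
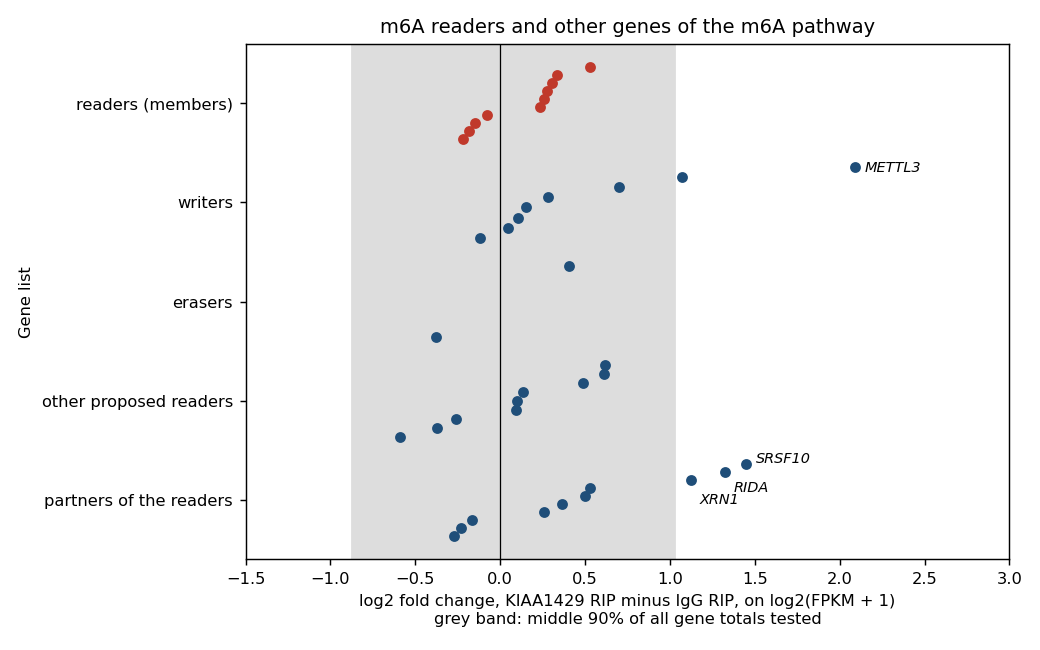
Log2 fold change of each gene total, KIAA1429 RIP minus IgG RIP on log2(FPKM + 1), for the 10 readers (red) and 29 other genes of the m6A pathway (blue), with the middle 90% of all gene totals tested in grey. The readers lie between -0.22 and 0.53, and the genes with an unadjusted p under 0.05 (limma), METTL3, SRSF10, RIDA and XRN1, are named and lie to the right of the band.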

How the data were processed

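RIP-seq of KIAA1429 RIP and IgG RIP from HCCLM3 cells was measured in 2 libraries each, grouped by their labels. After poly(A) selection, fragmentation and random priming, the authors sequenced the precipitated RNA and used HISAT2 with the GRCh37 genome; the submitters' processing notes list Bowtie2 2.1.0. The authors deposited FPKM per transcript and library. The tool that made the FPKM, the annotation release and the strand setting are not given in the sources used here. Single-transcript genes gave whole multiples of a read for at most 48.1% of low values (within 0.05), so reads were not recovered and the count test planned for count files was not run.

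FPKM were summed per gene name. Gene totals and transcripts that averaged 1 FPKM or more were fitted as log2(FPKM + 1), without scaling, by limma 3.58.1 in R 4.3.3 (eBayes with trend, two-sided, Benjamini-Hochberg over all tested). Such a fold change understates that of low genes. The code of the fit was run on data simulated from limma's own fitted spread, and its power on these libraries is not reported here. With 2 against 2, an exact permutation test cannot give a p below 0.333, so none was run. Shares and figures were made in Python 3.11.15 with pandas 2.3.3, numpy 2.4.6 and matplotlib 3.10.9. Of 47 member transcripts, 46 were found in GENCODE v44lift37 and 35 had both ends within 10 bases, and the exons of the latter were used for coding stretches of at least 5 bases whose rarer form held at least 5% of the FPKM on average.

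Named were all members, their leading transcripts, those averaging 5 FPKM or more, those of at least 1 FPKM with group means 2-fold apart and no overlap, and pathway genes with an unadjusted p under 0.05. YTHDF3 minor transcripts, YTHDC1 ENST00000344157, IGF2BP2 ENST00000464166 and ENST00000466214 and the coding stretches were chosen after their values were seen. The members and lists were chosen with earlier results of these data known.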

Additional observations from a re-analysis of the deposited data

How the results depend on the processing

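The alternatives were pseudocounts of 0.1 and 0.01, no filter and a filter at 5 FPKM, median scaling and quantile normalization, a replicate block, limma without trend, the most abundant transcript or the protein_coding transcripts in place of the gene total, shares of summed FPKM in place of mean shares, and each library left out in turn. No member was called under any of them. IGF2BP2 turned from -0.22 to 0.31 where its most abundant transcript, ENST00000346192, stood for the total, which is that transcript's own estimate. IGF2BP2 ENST00000382199 turned from -0.01 to 0.016 with median scaling, and the cause was not tested. With protein_coding transcripts only, IGF2BP2 was at -0.068 and the other members between -0.19 and 0.53. Leaving out 1 library each, the log2 fold change ranged from -0.16 to 0.63 for YTHDF2, from -0.23 to 0.89 for YTHDF3, from -0.62 to 1.14 for YTHDC1, from -0.25 to 0.10 for YTHDC2, from -0.43 to 0.13 for IGF2BP1, from -0.043 to 0.66 for IGF2BP3 and from -0.21 to 0.75 for HNRNPA2B1, while YTHDF1 (-0.37 to -0.0037), IGF2BP2 (-0.30 to -0.14) and HNRNPC (0.06 to 1.00) kept their sign. Of the transcripts, the range was -0.17 to 0.57 for YTHDF2 ENST00000373812, -0.51 to 0.72 for YTHDF3 ENST00000539294, -0.95 to 2.48 for YTHDC1 ENST00000579690, -0.25 to 0.10 for YTHDC2 ENST00000161863, -0.38 to 0.12 for IGF2BP1 ENST00000290341, -0.055 to 0.54 for IGF2BP3 ENST00000258729 and -0.24 to 0.85 for HNRNPA2B1 ENST00000356674. For IGF2BP2 it was -0.63 to 1.26 for ENST00000346192, -0.20 to 0.18 for ENST00000382199, -0.85 to 0.0021 for ENST00000421047 and -2.53 to 1.51 for ENST00000457616. For HNRNPC it was -0.35 to 1.73 for ENST00000556897, -0.11 to 0.31 for ENST00000555914, -0.26 to 1.95 for ENST00000336053, -0.14 to 2.49 for ENST00000553300 and -0.62 to 2.18 for ENST00000557201. Without a change of sign, the range was -2.02 to -0.66 for IGF2BP2 ENST00000461957, -1.57 to -1.24 for IGF2BP2 ENST00000466476, 0.01 to 2.63 for HNRNPC ENST00000555309 and 0.57 to 2.07 for HNRNPC ENST00000554969. Among the pathway genes it was 1.82 to 2.36 for METTL3, 1.11 to 1.54 for RIDA, 0.70 to 1.55 for XRN1 and 0.73 to 2.18 for SRSF10. With pseudocounts of 0.1 and 0.01 the log2 fold change was -3.27 and -5.06 for ENST00000461957, -3.39 and -4.27 for ENST00000466476, 2.89 and 4.54 for ENST00000554969 and 2.96 and 3.11 for METTL3. In each fit without a library, the lone library of its group is assumed to vary like the other group. IgG RIP replicate 2 turned YTHDF2, YTHDF3, YTHDC1 and IGF2BP3 when left out, IgG RIP replicate 1 IGF2BP1 and YTHDC2, KIAA1429 RIP replicate 1 HNRNPA2B1 and KIAA1429 RIP replicate 2 YTHDC2. The mean share of the 39-base region of HNRNPC was 24.6% in IgG RIP and 30.9% in KIAA1429 RIP with transcripts of any ends, an alternative chosen after seeing the data.

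Both groups carry the replicate numbers 1 and 2. The deviations of same-numbered libraries correlated at 0.187 over gene totals and 0.0299 over transcripts, and with 2 pairs and no label for what the numbers mark, the samples share only a number. With the replicate block, limma called 12 gene totals higher and 1 lower in place of 0 and 0, and 0 and 0 transcripts. None of the 13 was a member, and the lowest adjusted p of a member was 0.583, for HNRNPC. Precision rests on 2 libraries a group, and the depth is unknown.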
